A study of Mus musculus with 6 samples.

Results

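Molecular chaperones help other proteins to fold, keep them from clumping and hand damaged ones on for destruction. Hsp70 proteins bind short stretches of unfolded chain in a cycle driven by ATP, J proteins (the Dnaj genes) bring them their clients and start that cycle, and Bag proteins release the nucleotide that ends it. Hsp90 acts later, on nearly folded clients such as kinases and receptors, the TRiC/CCT ring folds actin and tubulin in a closed chamber, and small heat shock proteins hold unfolded proteins without using ATP. In a neonatal retina, in which progenitors still divide and rods are being born, some of these genes serve everyday folding while others are mainly known for their induction by heat shock factors under stress.

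The genes were chosen by symbol: those beginning with Hspa, Hspb, Hspd, Hspe, Hsph or Hsp90, the numbered Dnaja, Dnajb and Dnajc genes, Cct2 to Cct8, the heat shock factors Hsf, the Bag genes and Tcp1. Of 22690 probe sets on the array, 155 carried 1 such symbol and named 78 genes, 35 of them by a single probe set and 43 by several, up to 6. A further 2 probe sets, shared between Dnajc19 and a pseudogene, were set aside. Neither Hsf1 nor Hsp90ab1, Hspa12a, Hspa13, Dnajc6 or Hspb6 was analysed here, as no probe set carried that symbol alone. The rule by symbol also takes in Hspb11, a subunit of the intraflagellar transport complex of cilia, and Hspbp1, which binds Hsp70 and releases its nucleotide.

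The samples were retinas of 3 Nhlh2 knockout mice and 3 wildtype mice at postnatal day 4 (P4), with 1 Affymetrix mouse expression array per mouse. Both groups shared a mixed C57/129 background, and according to the series design a knockout and a wildtype mouse of the same number were littermates. Nhlh2 encodes a helix-loop-helix transcription factor of neurons, and the sources used here do not describe how its allele was made, the sex of the mice or whether each sample held 1 or both retinas. No probe set was paired with Nhlh2 alone, so the loss of its transcript was not checked.

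The deposited signals were not on a common scale, so each array was brought to a trimmed mean of 500 and all signals below are these scaled values. On that scale the array medians lay between 151 and 178. Retinal markers were high in the wildtype arrays and in knockouts 1 and 3. Crx, a photoreceptor transcription factor, was at 6794 to 18891 in the 3 knockout arrays and at 7215 to 7961 in the 3 wildtype arrays. In knockout 2 the markers parted: Pax6 had 197, against 3933 in knockouts 1 and 3 and 3886 to 4217 in the wildtype arrays. Neurod1 and Otx2 were also lower in knockout 2 than in wildtype 2, while Crx, Nrl and Six3 were higher. The array of knockout 2 stood apart: its ratio of 3′ to 5′ Actb signal was 274, against 1.41 and 1.47 in knockouts 1 and 3 and 1.38 to 1.56 in the wildtype arrays, and its correlation with any other array was at most 0.707. Results that include it are therefore also given without it. In wildtype 1 the lens genes were high. Of 8 measured, 7 peaked in that array. The crystallin Cryaa was at most 76.0 in the knockout arrays, against 5810 in wildtype 1, and the summed lens signal was 138 to 989 in the knockout arrays, against 12603 in wildtype 1 and 145 and 201 in wildtypes 2 and 3. The lens genes Mip and Gja3 did not exceed 84.0 and 74.0 in any array. Of the markers of other cells, 4 of 5 pigment epithelium, 3 of 4 microglial, 1 of 4 vessel and 0 of 2 red blood cell genes were above the array's median in all 3 wildtype arrays, with Rpe65, the defining enzyme of the pigment epithelium, at most 71.5 in any array. In whole tissue, fewer cells of a type and less RNA per cell cannot be told apart.

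Promoter sequences were searched because the induced chaperones are defined by their control elements. RefSeq promoters (GRCm38.p6) were matched for 64 of the 78 genes by symbol, and the 250 bases before each annotated start were read on both strands. A heat shock element of 3 units, GAANNTTCNNGAA or its complement TTCNNGAANNTTC, was found for 3 of these 64 genes, against 0.514% of all 27025 genes with a promoter. These were Hspd1 and Hspe1, which encode the ring and the lid of the mitochondrial chaperonin and are read in opposite directions from a shared stretch, and Dnajb6, a J protein known to suppress the aggregation of polyglutamine. The element of Hspd1 and Hspe1 (chr1:55088053-55088082, plus strand) and that of Dnajb6 (chr5:29735822-29735894, plus strand) are shown with the matching bases in capitals:
Hspd1 and Hspe1: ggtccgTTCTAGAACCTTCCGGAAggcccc
Dnajb6: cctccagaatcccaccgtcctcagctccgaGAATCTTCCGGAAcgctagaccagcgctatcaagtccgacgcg
In the shared stretch 2 overlapping matches covered 72 to 89 bases before the start of Hspe1, and 1 annotated start of Hspd1 lay 216 bases away on the other strand. The Dnajb6 match lay 34 to 46 bases before its start.

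The element of the endoplasmic reticulum (ER) stress response, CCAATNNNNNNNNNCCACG on either strand, was found for 3 of the 64 genes and in 0.13% of all genes. All 3 encode proteins of the ER. Hspa5 is its Hsp70 (BiP), Hsp90b1 its Hsp90 (Grp94) and Dnajc3 a J protein that also restrains the kinase Perk. The stretches around the matches, in capitals, were chr2:34771995-34772073 (plus strand), chr10:86705503-86705686 (minus strand) and chr14:118937797-118937875 (plus strand):
Hspa5: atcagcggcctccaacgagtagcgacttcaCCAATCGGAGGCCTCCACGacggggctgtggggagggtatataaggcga
Hsp90b1: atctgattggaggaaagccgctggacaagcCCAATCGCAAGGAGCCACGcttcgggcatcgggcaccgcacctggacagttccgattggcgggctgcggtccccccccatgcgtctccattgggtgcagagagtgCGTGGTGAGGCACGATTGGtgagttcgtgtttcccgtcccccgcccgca
Dnajc3: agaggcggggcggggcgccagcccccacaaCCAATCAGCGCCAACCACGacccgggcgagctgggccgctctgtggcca
Hsp90b1 held 2 matches, 1 on each strand. The shorter form of the heat shock element has 2 units (GAANNTTC or TTCNNGAA, which each 3-unit match also contains). It was found for 15 of the 64 genes and in 14.5% of all genes. Of 11 textbook heat shock targets 8 had it, among them Hspa1a, Hspa1b, Hspb1, Hsph1 and Dnaja1. Only 2 of the 11, Hspd1 and Hspe1, had the 3-unit form. These are matches of letters and not measured binding sites.

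In the wildtype P4 retina most chaperone genes gave a signal in the upper part of the array. Each gene was represented by its probe set of the highest mean wildtype signal. Of 78 genes, 57 were above the array's median in all 3 wildtype arrays, against 51.3% of all 12393 genes, and 34 were above the 75th percentile in all 3, against 25.5%. With the mean over a gene's probe sets the count above the median was 49 of 78. With probe sets of the plain _at suffix alone it was 43 of 69. Shares of all genes by these other measures were not taken, so these counts cannot be compared with the 51.3%. Taking the highest probe set favours genes with several. The 78 chaperone genes had 155 probe sets, beside 20380 for all 12393 genes. How far this raised the chaperone share above that of all genes was not tested. The median chaperone gene had a mean wildtype signal of 525, and the median of all genes was 227. The signal of a probe set also depends on its probes, so the order of genes given here is an approximate order of transcript amounts.

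**Figure D1:**
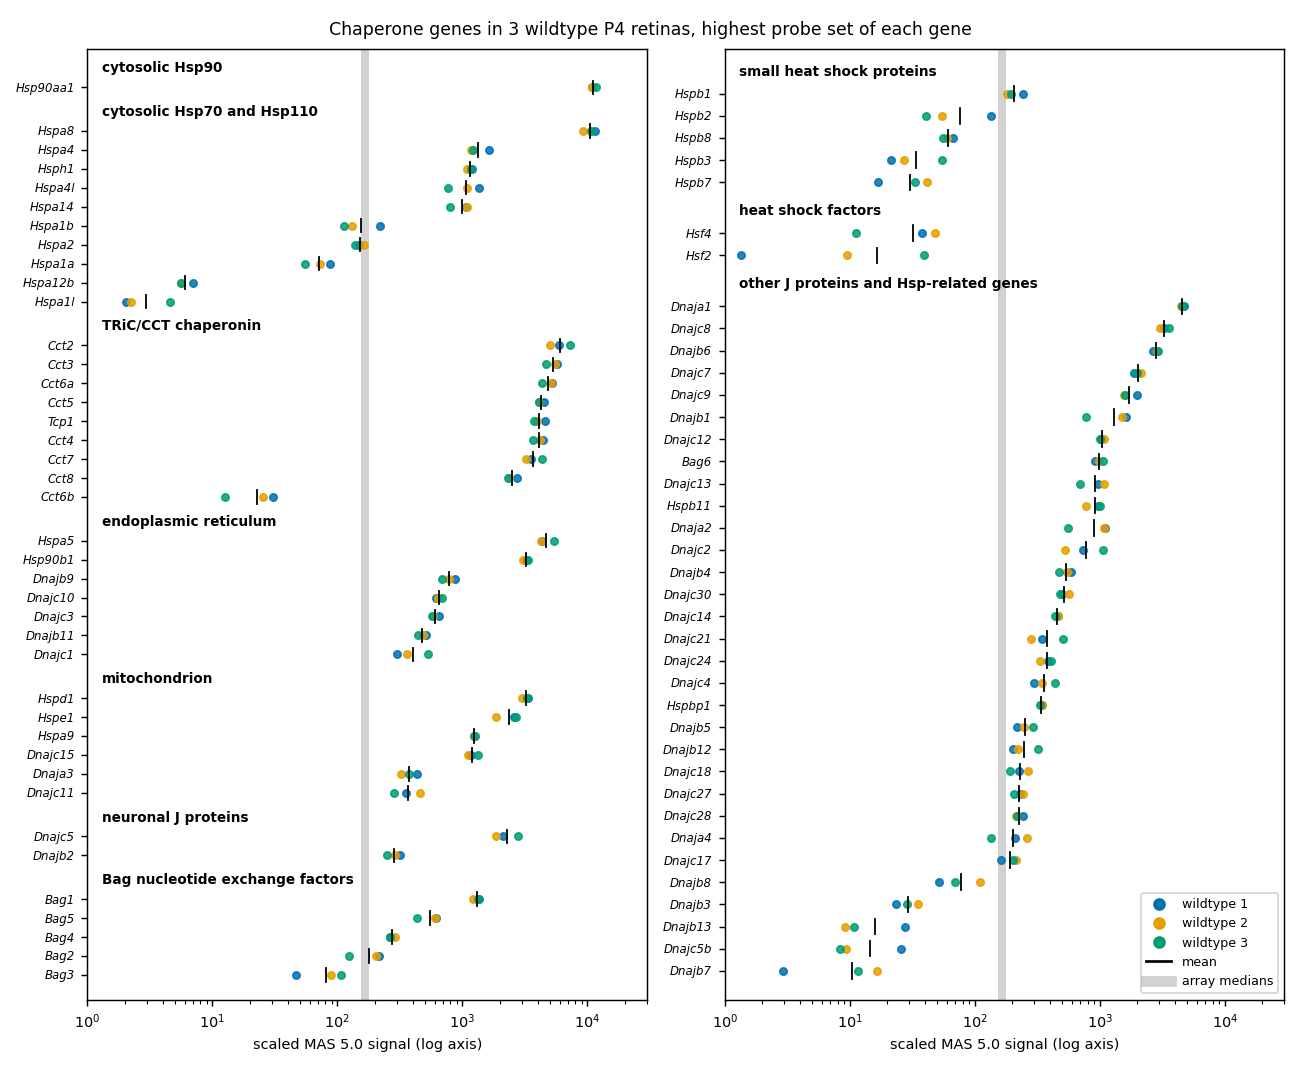
Scaled MAS 5.0 signal (log axis) of the 78 chaperone genes in wildtype retina at P4, with 1 point for each of 3 mice and a bar at the mean, grouped by role. Hsp90aa1, Hspa8 and 8 TRiC/CCT subunits lie at the right. Heat shock factors, all small heat shock proteins but Hspb1, and some Hsp70 genes such as Hspa1l lie below the grey band of array medians.

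The highest signals were those of the general cytosolic chaperones. Hsp90aa1, a cytosolic Hsp90, had 10796, 10785 and 11690 in wildtypes 1, 2 and 3, with a mean of 11090 ± 519 (SD, n = 3), and Hspa8, the constitutive Hsp70 (Hsc70), had 11595, 9200 and 10674. The ranges of these genes overlap, and no other chaperone was within the 100 highest genes of the array. The Hsp70 partners followed far below: Hspa4 and Hsph1, which exchange the nucleotide of Hsp70, had means of 1343 ± 262 and 1154 ± 53.3 (SD, n = 3 each), and Hspa4l and Hspa14 had 1065 and 988. The lowest of this role was Hspa1l, the Hsp70 of male germ cells, at 2.04, 2.24 and 4.57, a level near the floor of the array. Hspa12b, an Hsp70 relative of endothelial cells, had 6.08 ± 0.807 (SD, n = 3).

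Nearly all subunits of the TRiC/CCT ring gave a high signal. The 8 subunits of the ring proper, Tcp1 (the first subunit) and Cct2, Cct3, Cct4, Cct5, Cct6a, Cct7 and Cct8, had mean wildtype signals of 2472 to 6067 and were above the 75th percentile in every wildtype array. Cct2 was the highest with 5898, 5017 and 7287 in wildtypes 1, 2 and 3, and Cct8 the lowest of them with 2739, 2343 and 2335. On these probe sets the ranges do not overlap. Of the other Cct2 probe sets, 1416037_a_at had 5434 ± 370, but 1433534_a_at had 2618 ± 461 (SD, n = 3 each), close to Cct8. Several neighbours in the order did not differ beyond their spread: Tcp1 had 4074 ± 420, Cct4 4073 ± 365 and Cct5 4228 ± 218 (SD, n = 3 each). Cct6b, a form of Cct6a found in testis, had 30.3, 25.5 and 12.6, below the median of each array.

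The chaperones listed for the ER and for mitochondria were all above the array's median in all 3 wildtype arrays, 7 of 7 and 6 of 6 genes. Dnajb12, also of the ER membrane, was not on the list and was grouped with the other J proteins. In the ER, Hspa5 had 4364, 4239 and 5397 and Hsp90b1 had 3245, 3043 and 3318 in wildtypes 1, 2 and 3. The genes of the ER J proteins were lower, with Dnajb9 at 781 ± 92.6, Dnajc3 at 599 ± 44.9 and Dnajb11 at 479 ± 35.7 (SD, n = 3 each). Dnajc1, a J protein of the ER membrane, was the lowest of the 7 listed with 302, 362 and 535, and was highest in wildtype 3. The 3 genes with an ER stress element were thus the highest 2 of this group and a lower one.

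In mitochondria, Hspd1 (Hsp60) had 3373, 3023 and 3292, and Hspe1 (Hsp10), its partner across the shared promoter, had 2569, 1859 and 2703 in wildtypes 1, 2 and 3. Both were lowest in wildtype 2. Hspa9, the mitochondrial Hsp70 (mortalin), had 1256, 1235 and 1243 on 1418504_at, which hardly varied, and 809, 946 and 554 on its other tested probe set, 1418503_at, which did. Dnajc15, a J protein of the import motor, had 1198 ± 114 and Dnaja3 377 ± 56.7 (SD, n = 3 each). The lowest of the group was Dnajc11, an outer membrane J protein, with 353, 457 and 284.

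Among J proteins known for neuronal roles, Dnajc5, the cysteine string protein of synaptic vesicles, had 2102, 1872 and 2790 in wildtypes 1, 2 and 3, and Dnajb2, which hands ubiquitinated clients to the proteasome, had 318, 288 and 250. The other probe sets of Dnajc5 had wildtype means of 242 to 1682, and the values of the lowest (261, 344 and 120) overlap those of Dnajb2. Of the other J proteins, the highest was Dnaja1, the main cytosolic partner of Hsp70, with 4702, 4436 and 4543. Dnajc8, which is linked to splicing, had 3275 ± 264, Dnajb6 2826 ± 126 and Dnajc9, a histone chaperone of dividing cells, 1722 ± 237 (SD, n = 3 each). At the other end Dnajb7, Dnajb13 and Dnajc5b had means of 10.4, 15.8 and 14.4. Bag1, a nucleotide exchange factor that also links Hsp70 to the proteasome, led its group with 1361, 1224 and 1337, and Bag3, which joins Hsp70 to small heat shock proteins and autophagy, was the lowest with 46.6, 88.6 and 107.

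Textbook heat shock targets ranged widely in level. Of 13, 9 were above the array's median in all 3 wildtype arrays, namely Hsp90aa1, Hspa8, Dnaja1, Hspd1, Hspe1, Dnajb1, Hsph1, Dnajb4 and Hspb1. Hspb1 passed only narrowly in wildtype 2, at 180 against that array's median of 178, and its other probe set (1425964_x_at) averaged 48.6. The other 4 were the inducible Hsp70 genes Hspa1a and Hspa1b, Bag3 and the small heat shock protein Hspb8. Hspa1a had 86.9, 72.1 and 55.4 in wildtypes 1, 2 and 3, and Hspa1b had 218, 132 and 114, so that Hspa1b passed the median in wildtype 1 alone. Hspa1a and Hspa1b are nearly identical neighbours on chromosome 17, and their signals may mix. Beside the 10489 of Hspa8, the constitutive form, both inducible Hsp70 genes gave signals in the lower part of the range.

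**Figure D2:**
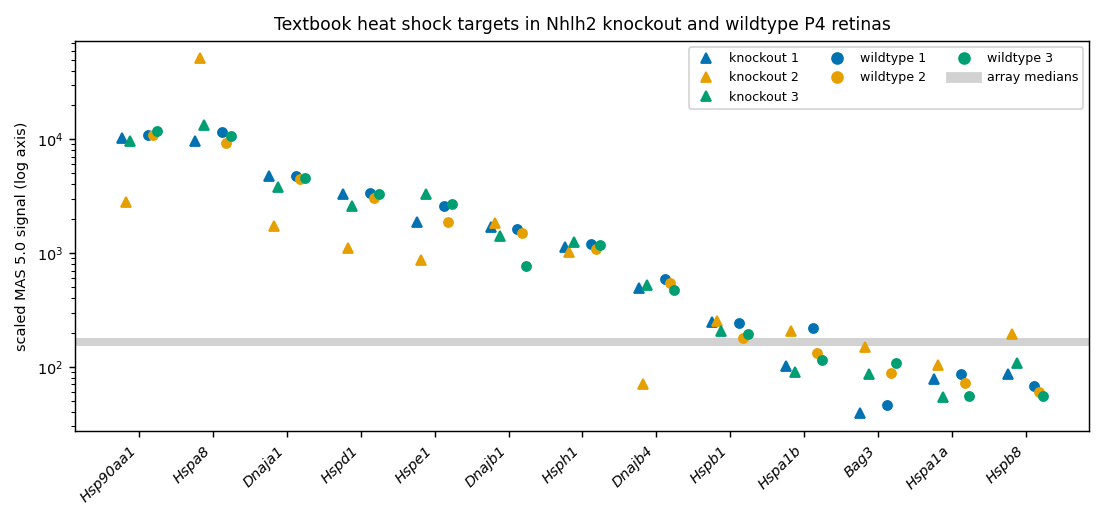
Scaled MAS 5.0 signal (log axis) of 13 textbook heat shock targets in 3 Nhlh2 knockout retinas (triangles) and 3 wildtype retinas (circles), with littermates in the same colour and the range of array medians in grey. Knockouts 1 and 3 lie near the wildtype points for most genes, while knockout 2 leaves them in both directions, as for Hspa8 at 51118 and Dnajb4 at 70.1.

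Dnajb1, the J protein that starts Hsp70 and shuts down heat shock factor 1, differed most between wildtype mice among the 9 targets above the median. It had 1697, 1831 and 1402 in knockouts 1, 2 and 3, against 1609, 1506 and 769 in wildtypes 1, 2 and 3. The low value is that of wildtype 3, and the groups overlap. The SD of its log2 signal over the wildtype arrays was 0.58, against a median of 0.19 over all 78 genes and 0.26 over all genes of the array.

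The small heat shock proteins measured here, all with an Hspb symbol, and the measured heat shock factors gave little signal. Of 5 small heat shock proteins only Hspb1 (Hsp27 in humans, Hsp25 in mice), which protects actin filaments, was above the array's median in all 3 wildtype arrays, at 243, 180 and 194. Hspb8, the partner of Bag3, had 67.2, 60.0 and 55.9, and Hspb7 was the lowest with 17.0, 41.2 and 33.1. Hspb2 had 135 in wildtype 1, the array with lens crystallins, against 54.4 and 40.9 in wildtypes 2 and 3, and the part of lens in this was not tested. Hsf2, a factor of development and of germ cells, had 1.36, 9.51 and 39.0, and Hsf4, the factor of the lens, had 37.8, 47.9 and 11.3. Neither was above the median in any wildtype array, and Hsf4 was higher in wildtype 2 than in wildtype 1.

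Probe sets of the same gene often disagreed in level. Of the 43 genes with several, 22 had some above the median in all wildtype arrays and some not. The widest ratios of the highest to the lowest mean wildtype signal were 266 in Cct3, 226 in Dnaja3 and 189 in Hspa8. For Hspa8 the probe set 1455789_x_at averaged 10489 and 1431182_at 55.4, and for Cct3 the means were 5294 and 19.9. The highest probe sets of Hspa8, Cct2, Cct3 and Cct4 carry the _x_at suffix, which marks probes that can also bind other transcripts.

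**Figure D3:**
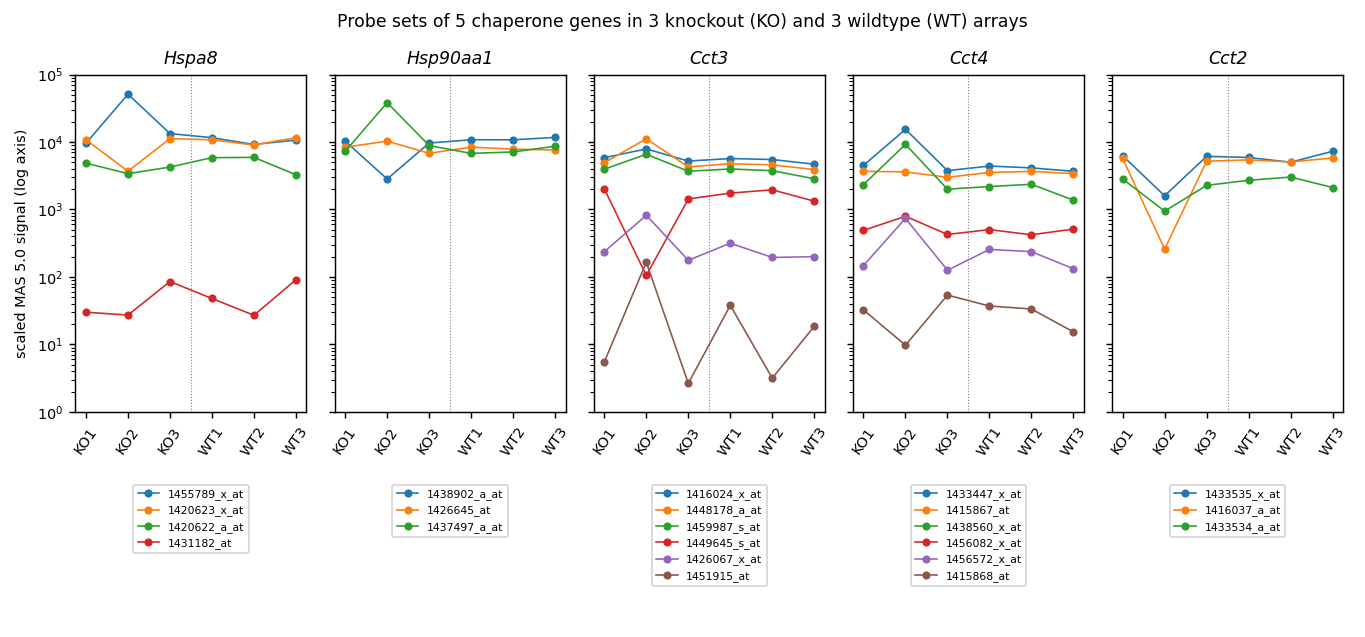
Scaled MAS 5.0 signal (log axis) of each probe set of 5 chaperone genes in the 3 knockout (KO) and 3 wildtype (WT) arrays; a line joins the points of 1 probe set and implies no order. In KO2 probe sets of the same gene move apart, as for Hsp90aa1 at 38273 and 2828, while in the other arrays they keep their places more closely.

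Which chaperones changed with loss of Nhlh2 was asked next, across the 101 probe sets of 58 of the 78 genes that were that passed the median of the array in 3 or more of the 6 arrays. None of the 101 passed the test in either direction. Over all 11603 probe sets tested the share called was 0%, so this holds for the array as a whole. At an unadjusted p under 0.05, 0 of the 101 chaperone probe sets and 12 of all probe sets (0.103%) were counted. Without knockout 2 these counts were 0 and 74 (0.638%), again with 0 called after adjustment (limma, lowest adjusted p = 0.752 with all arrays and 0.999 without knockout 2). The median log2 difference of the chaperone probe sets, knockout minus wildtype, was -0.29 with all arrays and -0.02 without knockout 2, beside -0.18 and -0.005 over all probe sets tested.

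The array of knockout 2 set how much could be seen. With all 6 arrays the 95% confidence interval of the log2 difference lay within 2-fold in both directions for 20 of the 101 chaperone probe sets (20.4% of all probe sets tested). Without knockout 2 it did so for 92 (83.2% of all), and for 37 it lay within 1.5-fold. Among these 92 were the most abundant members. Hsp90aa1 (1438902_a_at) had a difference of -0.15 with an interval of -0.57 to 0.26, Hspa8 (1455789_x_at) 0.12 with -0.42 to 0.65, Hspa5 (1416064_a_at) 0.11 with -0.37 to 0.59, Hspd1 -0.15 with -0.62 to 0.32 and Tcp1 0.03 with -0.44 to 0.50.

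Within littermates, pairs 1 and 3 differed little and pair 2 widely. The median difference of the 101 probe sets was -0.001 in pair 1, -0.85 in pair 2 and 0.04 in pair 3. Higher in the knockout were 50 of them in pair 1 (50.9% of all probe sets), 31 in pair 2 (38.4% of all) and 58 in pair 3 (50.6% of all). Differences over 2-fold were seen for 0 chaperone probe sets in pair 1 (0.388% of all probe sets), 59 in pair 2 (58.7% of all) and 0 in pair 3 (1.52% of all). In pairs 1 and 3 together, 26 chaperone probe sets were higher in both knockouts (24.8% of all probe sets) and 19 were lower in both (23.4% of all), while 56 went opposite ways. These shares lie near those of the array. Without knockout 2, both knockout values were above all 3 wildtype values for 5 of the 101 (5.34% of all probe sets), on probe sets of Hspbp1, Dnaja2, Dnajc28, Dnajc30 and Dnajc9, and below them for 4 (5.42% of all), on single probe sets of Cct7, Hsp90aa1, Hsp90b1 and Dnajc5. For Cct7 the difference without knockout 2 was -0.23 on that probe set (1415816_at) and 0.24 on the other (1415817_s_at).

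**Figure D4:**
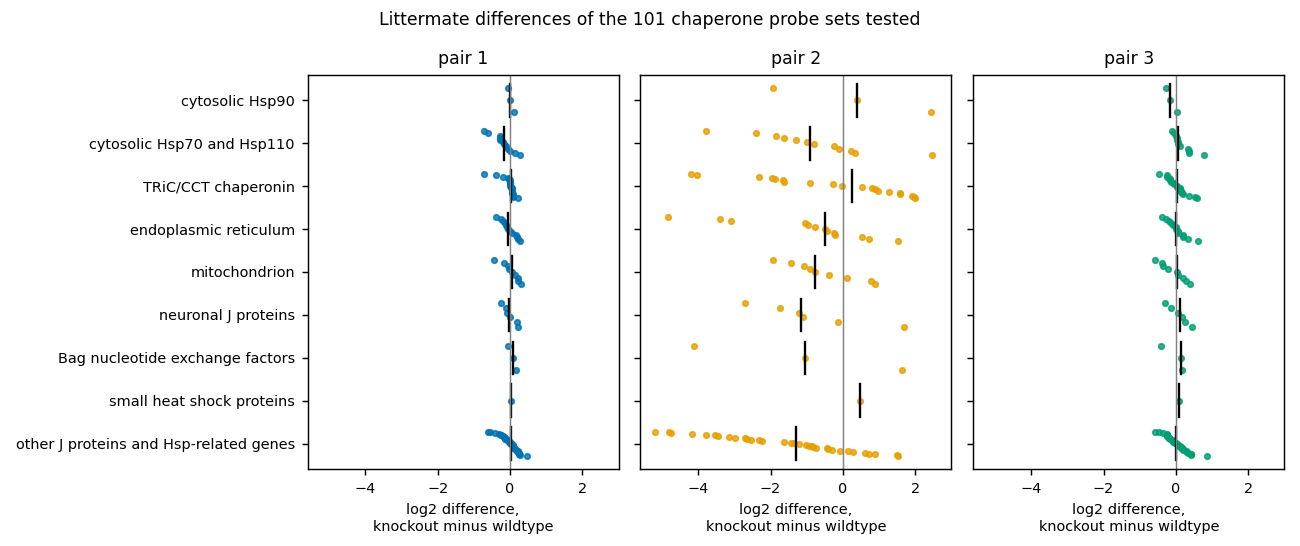
Differences of log2 signal, knockout minus wildtype, in littermate pairs 1, 2 and 3 for the 101 chaperone probe sets tested, 1 point per probe set and a bar at the median of each role. Points of pairs 1 and 3 stay within 1 unit of zero, while those of pair 2 run from -5.20 to 2.47.

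In the larger roles, cytosolic Hsp70 and Hsp110 probe sets had a median difference of -0.18 in pair 1 (3 of 12 higher in the knockout) and 0.06 in pair 3 (9 of 12 higher). The TRiC/CCT probe sets had 0.02 in both pairs, with 11 of 20 higher in each. The ER probe sets had -0.05 and 0.003 (6 and 7 of 13 higher), those of mitochondria 0.05 and 0.04 (5 of 9 in each), and textbook heat shock targets -0.02 and 0.03 (7 and 10 of 17). Roles with few probe sets were the Bag factors with 0.07 and 0.14 (2 of 3 higher in each pair), cytosolic Hsp90 with -0.01 and -0.16 (1 of 3 higher in each) and neuronal J proteins with -0.04 and 0.11 (2 and 4 of 6 higher).

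Hspbp1 had the smallest p of the chaperones, which was 0.129 before adjustment (limma, all arrays). Its signal was 487, 1028 and 379 in knockouts 1, 2 and 3, against 346, 345 and 330 in wildtypes 1, 2 and 3. Every knockout value is above every wildtype value, a pattern that 2.65% of all probe sets showed and, among the 101, Hspbp1 alone. The log2 difference was 0.73 ± 0.42 (SE; limma adjusted p = 0.752), and 0.32 ± 0.19 without knockout 2 (limma adjusted p = 0.999).

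Hsp90b1 (1415889_a_at) had 2826, 1759 and 2553 in knockouts 1, 2 and 3, against 3245, 3043 and 3318 in wildtypes 1, 2 and 3. All knockout values are below all wildtype values, as also for Hsp90aa1 (1438902_a_at) and Dnajc5 (1448850_a_at), which makes 3 of 101 beside 3.58% of all probe sets. The difference was -0.45 ± 0.31 with all arrays and -0.25 ± 0.17 without knockout 2 (SE). The other probe set of Hsp90b1 did not share it, with -0.01 and -0.03, and neither did the others of Hsp90aa1 and Dnajc5 as a whole, whose differences without knockout 2 ran from -0.07 to 0.10 and from -0.13 to 0.12.

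Hspb11, the cilium subunit, had 648, 142 and 786 in knockouts 1, 2 and 3, against 968, 770 and 1009 in wildtypes 1, 2 and 3. Each knockout was below its own littermate, with log2 differences of -0.57, -2.31 and -0.35 in pairs 1, 2 and 3, though knockout 3 was above wildtype 2. Dnajb12, a J protein of the ER membrane, had 168, 85.7 and 212 in knockouts 1, 2 and 3, against 202, 221 and 321 in wildtypes 1, 2 and 3, and this probe set (1435886_at) was likewise lower in each pair. The other probe set of Dnajb12 (1421032_a_at), which did not pass the filter, had -0.05, 0.77 and 0.56 in pairs 1, 2 and 3. Their differences were -1.08 ± 0.64 and -0.68 ± 0.41 (SE), or -0.34 ± 0.21 and -0.34 ± 0.25 without knockout 2.

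The other genes named for their rank by p had unadjusted p-values of 0.170 (Dnajc27) to 0.247 (Bag1) (limma, all arrays). Their differences, like those of the genes above, were smaller in size without knockout 2. Hspa8 (1455789_x_at) had 9589, 51118 and 13343 in knockouts 1, 2 and 3, against 11595, 9200 and 10674 in wildtypes 1, 2 and 3, and Hsp90aa1 (1437497_a_at) had 7262, 38273 and 8861, against 6780, 7127 and 8669. Bag1 had 1317, 3808 and 1507, against 1361, 1224 and 1337. Knockouts 1 and 3 lie close to or within the wildtype range in each of these. The differences were 0.84, 0.85 and 0.58 with all arrays, and 0.12, 0.10 and 0.11 without knockout 2. Cct4 (1438560_x_at) had 0.86 and 0.17 in the same way.

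In the opposite direction, Hsph1 (1423566_a_at) had 660, 46.7 and 544 in knockouts 1, 2 and 3, against 806, 856 and 533 in wildtypes 1, 2 and 3, and Dnajc27 (1435117_a_at), a J protein fused to a small GTPase, had 146, 39.0 and 236, against 231, 245 and 206. Their differences were -1.35 and -0.89 with all arrays, and -0.25 and -0.26 without knockout 2. The other Hsph1 probe set had 1136, 1011 and 1242, against 1188, 1093 and 1182, with knockout 2 close to the rest. In pair 2 the probe sets of a gene parted in this way in general: over 26 genes with several tested probe sets, the median span of their log2 differences was 2.02 in pair 2, against 0.25 in pair 1 and 0.37 in pair 3. Probe sets of Cct3, Hsp90aa1, Hspa8 and Dnajc3 were past 2-fold in both directions at once in pair 2.

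Apart from knockout 2, probe sets of the same sign in pairs 1 and 3 were ranked by the mean of both differences. The first 3 were Dnajb1, Dnaja2 and Hspbp1 among those higher, and Hspb11, Dnajb12 and a Cct4 probe set among those lower, some of which rest mainly on 1 pair. Dnajb1 (1416755_at) was higher by 0.08 in pair 1 and by 0.85 in pair 3, the pair with the low wildtype value, and its other probe set (1416756_at) had 0.22 and -0.19. Dnaja2 (1417182_at), a cytosolic J protein, had 498 and 480 in knockouts 1 and 3, against 418, 422 and 352 in wildtypes 1, 2 and 3, while knockout 2 had 15.6. On this probe set Dnaja2 was higher by 0.25 and 0.43 in pairs 1 and 3, and on its other (1417183_at) by 0.12 and 0.41. There knockouts 1 and 3 had 1192 and 747, which overlap the 1092, 1075 and 556 of wildtypes 1, 2 and 3. Cct4 (1456572_x_at) had 148 and 126 in knockouts 1 and 3, against 256, 238 and 132 in wildtypes 1, 2 and 3, and the difference of -0.73 in pair 1 stood beside -0.06 in pair 3. For Hspd1 and Hspe1, which share a promoter, the reading depended on the probe set. Hspd1 (1426351_at) differed by -0.04 in pair 1 and -0.35 in pair 3, and Hspe1 by 0.05 and -0.39 on 1422579_at but by -0.45 and 0.29 on 1450668_s_at.

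Other genes of protein folding gave the same picture. Of 36 measured genes, 34 were above the median in all 3 wildtype arrays. The exceptions were the ER genes Pdia4 and Sdf2l1. Cochaperones of Hsp70 and Hsp90 were at 410 (Unc45a, a myosin chaperone) to 1919 (Ahsa1, which activates the ATPase of Hsp90), and the prefoldins, which pass new actin and tubulin to TRiC/CCT, at 1128 to 3987. Calr, the ER chaperone calreticulin, had 2854, 12929 and 3701 in knockouts 1, 2 and 3, against 3012, 2865 and 7098 in wildtypes 1, 2 and 3, and Atf4, a factor of the integrated stress response, had 2997, 1580 and 3322, against 3079, 3308 and 3886. Of the 35 genes tested, 0 were called higher and 0 lower, with all arrays or without knockout 2 (limma, 0 with an unadjusted p under 0.05 in each). Without knockout 2 their differences ran from -0.45 to 0.32, with a median of 0.01.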

How the data were processed

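RNA from the retinas of 3 Nhlh2 knockout and 3 wildtype P4 mice was hybridised to Affymetrix mouse expression arrays. For every probe set the authors deposited an intensity from each array, computed with MAS 5.0, in which mismatch probes and local background are taken off. The values are linear and were not scaled between arrays (medians of 9.0 to 95.6), and present calls were not used here. Each array was scaled to a 2% trimmed mean of 500, and log2(signal + 16) was used for every difference. Symbols came from the platform annotation and were checked by gene ID against RefSeq (GRCm38.p6), with 0 updates.

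Knockout and wildtype were compared with limma 3.58.1 (R 4.3.3), without the littermate pair as a term, over the 11603 probe sets that passed the median of the array in 3 or more of the 6 arrays, with Benjamini-Hochberg adjustment at 0.05. All 101 chaperone probe sets that passed this filter did so with wildtype arrays among them, and 54 did not pass. Pairing comes from the series design. After group means were removed, littermates correlated with r = 0.288, -0.139 and 0.191 in pairs 1, 2 and 3, and other knockout and wildtype arrays with r between -0.427 and 0.379. Knockout 1 was closest to wildtype 2 and knockout 2 to wildtype 3, so these values give the pairing no support of their own. Genes were named by rule: the highest and lowest of each role, the listed Hsp90, heat shock factor and textbook target genes, the 5 smallest p in each direction, up to 3 per direction shared by pairs 1 and 3, and 3 with the widest probe set ratios. Others were named after their values were seen. Members and lists were chosen with earlier results of these data known. Precision is limited by the number of arrays. With 1 array per mouse, p-values measure the spread between arrays, in which differences between mice and between RNA preparations cannot be told apart.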

Additional observations from a re-analysis of the deposited data

How the results depend on the processing

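Over 16 alternatives (other scalings, constants and filters, an intensity trend, the replicate block and leaving out arrays), 0 chaperone probe sets and 0 of all probe sets were called by limma. At an unadjusted p under 0.05, 0 to 2 chaperone probe sets were counted beside 1 to 450 of all probe sets, with 2 beside 433 without knockout 1. The median chaperone difference of -0.29 was -1.20 with signals as deposited, where the median of all probe sets was -1.09. When 1 array was left out it ran from -0.43 to -0.02, with -0.02 without knockout 2. It was -0.29 with the replicate block, and 0.004 with the block in littermate pairs 1 and 3 alone, and the block changed no call. Of 78 genes, 57 were above the median in all wildtype arrays, and 34 with the 75th percentile as threshold. Leaving out 1 wildtype array gave 57 to 59.

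Some uncalled differences of single probe sets changed sign, always with limma adjusted p of at least 0.454. With signals as deposited, Hspbp1 had -0.39, Cct4 (1438560_x_at) -0.35, Hspa8 -0.38, Hsp90aa1 (1437497_a_at) -0.37, Bag1 -0.60, Dnajb1 (1416755_at) -0.76 and Cct4 (1456572_x_at) -0.78. With that setting 0 of the 101 chaperone probe sets were higher. The deposited trimmed means were 200, 25.7 and 170 in knockouts 1, 2 and 3, against 221, 268 and 186 in wildtypes 1, 2 and 3. Every knockout array was thus dimmer than its littermate, knockout 2 by far the most, so these signs say nothing about single genes. Without knockout 2, Dnaja2 (1417182_at) had 0.29 in place of -1.04, and Cct4 (1456572_x_at) -0.51 in place of 0.26. Over all arrays left out in turn they ran from -1.72 to 0.29 and from -0.51 to 0.69, with -0.02 for this Cct4 probe set without wildtype 3. With the block in pairs 1 and 3 alone Dnaja2 had 0.34 and Cct4 -0.40. For the changes other than with signals as deposited, the cause was not tested.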
